A study of Arabidopsis thaliana with 30 samples.

Results

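The stump of the Arabidopsis root 5 h after its tip was cut away was compared with a piece of root taken farther from the tip. The 4 stump arrays were chosen by their titles, which give a first cut at 130, a recut after 5 h, a piece of 70 and an age of 4 days post germination (dpg). The 3 section arrays were chosen by titles that give positions 270 to 340 and an immediate harvest. These 7 arrays are part of a series of 30. The titles print lengths in mm, whereas the protocol gives 130 and 70 µm, so µm is used here for the stump and the section keeps its labelled numbers without a unit. All seedlings were of the Col-0 accession, with no mutation or transgene, grown on agar in long days. The design text calls the section wounded tissue and the control that does not regenerate. No age is given for the section in its title.

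The stump and the section therefore differed at once in position along the root, in time since the first cut and in whether the distal tip had been removed before, and possibly in age. These cannot be told apart in this comparison. Each replicate pooled at least 25 pieces, and 50 ng of total RNA was amplified in a two-cycle protocol before hybridisation to Affymetrix ATH1 arrays. Nothing in the labels says whether replicates came from separate plates or days, so the p-values measure the spread between these pools. The other 23 arrays were of uncut tips at 4 dpg (4 arrays) and 8 dpg (3), and of further stumps. Those stumps were recut after 0 h (4), 13 h (4) or 22 h (5) at 4 dpg, or labelled 8 dpg (3). The stumps labelled 8 dpg carry 0 h in their titles but 192 h in their source names. All 23 arrays entered the fit, where they share in the estimate of spread. Their levels are given where they show where the stump and the section stand.

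The growing tip of a root holds a stem cell niche, a meristem in which cells divide, and then zones in which cells elongate and mature. Dividing cells build ribosomes and the machinery of mitosis, while elongating cells enlarge their walls and vacuoles. When the distal tip is cut off within the meristem, the stump can rebuild a new tip, a capacity that is lost farther from the tip. Wounding also switches on defence, heat shock and cell wall genes in many plant tissues.

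The median signals of the 5 h stump arrays were 77 to 89.1, against 66.1 to 73.5 for the section arrays. Correlations of log2 values between arrays were 0.918 to 0.945 within the stump group and 0.96 to 0.967 within the section group. The median SD over arrays was 0.385 (log2) among stump arrays and 0.251 among section arrays. No 2 arrays held the same values. With 4 and 3 arrays, array number sets the precision. A difference below means 5 h stump minus section after adding 32 to each signal and taking log2, and the added 32 makes differences of dim genes come out smaller. In bulk tissue, fewer cells of a type and less RNA per cell cannot be told apart. Signals are compared between groups for 1 probe set at a time, not between genes. For each of the 106 called genes named below, every stump array lay on the same side of every section array. This adds little, because the same held for 2635 of all 2689 called probe sets. It was also a condition of choosing the 15 largest rises and the 15 largest falls.

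Of 22746 probe sets, 2689 (11.8%) passed both an adjusted p under 0.05 in limma and a difference of at least 1, and are called changed here. In the stump, 1451 of them (6.38%) were higher and 1238 (5.44%) were lower. Among these, 259 rose by 2 or more and 176 fell by 2 or more. The adjusted p alone was met by 3427 probe sets (15.1%). The stump arrays and the section arrays did not overlap for 6609 probe sets (29.1%). The median of all differences was 0.08, and 56.4% of them were positive. The balance of directions depended on scaling: 54.0% of calls were higher in the stump as deposited, 53.0% after quantile normalization and 37.5% after centring each array on its median, which moved the median of all differences to -0.1. Probe sets with 1 gene name stood for 13286 genes, of which 1479 (11.1%) were called, 848 (6.38%) higher and 631 (4.75%) lower, with a median difference of 0.1. The gene lists below are read against these shares and have no test of their own.

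Genes that make ribosomes stood higher in the stump almost throughout. Of 26 ribosome biogenesis genes with a named probe set, 25 were called higher and 0 lower (96.2% called, against 11.1% of named genes), with a median difference of 1.81 and a range of 0.95 to 3.04. All 26 had stump arrays that did not overlap with the section arrays, against 29.1% of all probe sets. With median centring 21 were called higher and the list median was 1.63. The 1 member not called was NRPA1, the largest subunit of RNA polymerase I, at 0.95 (adjusted p = 0.1), which is named here because it was the exception and after its value was seen.

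The gene of the list with the largest difference was AT3G25940, a zinc-ribbon subunit of RNA polymerase I, the enzyme that transcribes ribosomal RNA. Its signals were 667.5, 717.4, 1107.4 and 1339.1 in the stump, against 116.4, 71.2 and 69.2 in the section. Every stump array lay far above every section array, and the difference was 3.04 (SE 0.267, adjusted p = 1e-09). AT3G03920, which codes for GAR1 of the RNA-guided pseudouridylation complex, had 7339.4, 7662.7, 8279.1 and 6767.8 in the stump and 1528.3, 1427.8 and 747.7 in the section, a difference of 2.64 (SE 0.283, adjusted p = 6.55e-08). AT5G08180, for NHP2 of the same complex, averaged 1987 ± 337 in the stump and 283 ± 52.1 in the section (SD, n = 4 and 3; limma adjusted p = 2.26e-07). AT3G05060, of the NOP58 type that scaffolds methylation of ribosomal RNA, had a difference of 2.43. The rRNA processing genes AT5G38720 (RRP7 type) and AT5G66540 (MPP10 type) had differences of 2.44 and 1.95.

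Levels in the other groups are given as a description, without a test. AT3G25940 averaged 599 ± 165 in the stump at 0 h and 874 ± 168 in the uncut tip at 4 dpg (SD, n = 4 each). The list averaged 9.65 on the log2 scale in the stump at 0 h and 10.03 at 5 h, 10.2 in the tip at 4 dpg and 8.16 in the section. The section was the lowest of the 8 groups for this list.

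Cytosolic ribosomal proteins, the building blocks of the ribosome, moved the same way with smaller differences. Of those measured, 62 were called higher, 0 lower and 66 were not called (48.4% called), with a median of 0.99 and a range of -0.28 to 3.43, and 107 had arrays that did not overlap. The count was 35 after quantile normalization and 40 after median centring, with list medians of 0.63 and 0.81. Several of these proteins are coded by near-identical genes, and a probe set can read more than 1 of them. The largest difference belonged to AT2G32220, a ribosomal protein L27 gene. It had 1153.9, 1234.6, 965.4 and 1857.4 in the stump, against 136.7, 77.4 and 63.4 in the section (difference 3.43, SE 0.284, adjusted p = 3.67e-10). AT4G30800, an S11 gene, had 2782.4, 3048.7, 2804.8 and 2620.4 in the stump and 546.4, 539.2 and 375.4 in the section. AT1G80750 (L7), AT5G59240 (S8), AT2G45710 (S27) and AT2G37600 (L36) had differences of 2.36, 2.28, 2.16 and 1.89.

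**Figure D1:**
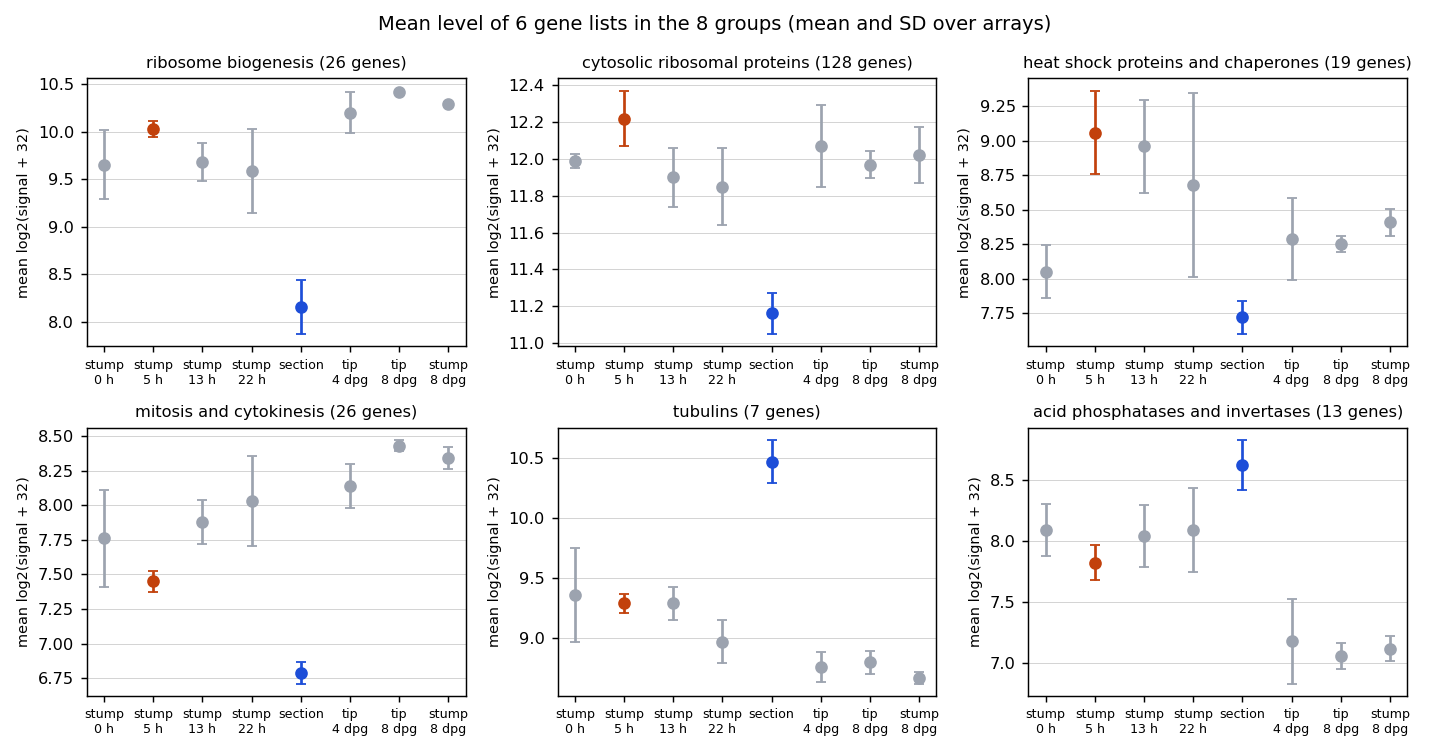
Mean log2(signal + 32) of 6 gene lists in each of the 8 groups, with stump times in order, then the section, the tips and the stump at 8 dpg; points are means over arrays and bars are SDs over 3 to 5 arrays. Orange marks the stump at 5 h and blue the section: for ribosome biogenesis the 2 groups stand at 10.03 and 8.16, and for tubulins at 9.29 and 10.47.

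Genes of mitosis and cytokinesis leaned higher in the stump than in the section, with most differences short of a call. Of 26 measured, 24 were positive, 6 were called higher and 1 lower (26.9% called), with a median of 0.77. With a pseudocount raised 4-fold, called the larger pseudocount below, 2 were called higher, and with median centring 4. AT2G36200, a kinesin of the spindle-sliding class, had 267.8, 497.6, 640.8 and 579.7 in the stump and 176.6, 121.1 and 114.7 in the section (difference 1.60, adjusted p = 0.000164). The 3xHMG-box genes code for proteins that bind mitotic chromosomes: 3xHMG-box2 had a difference of 1.43 and 3xHMG-box1 of 1.40. The call of 3xHMG-box1 was lost with the larger pseudocount (0.91). AT5G60930, a chromosome-binding kinesin, had 1.41 (0.76 with the larger pseudocount, where its call was lost). The Aurora kinase gene AUR3 had 1.07, and its call was lost with the larger pseudocount, with quantile normalization and with median centring (smallest difference 0.74). Going the other way, AT3G45850, a second kinesin of the class of AT2G36200, fell by 1.09 on the log2 scale, with stump signals of 148.8, 142.9, 216.8 and 130.8 against 320.4, 389.5 and 407.9 in the section. Its call was lost with the larger pseudocount and with quantile normalization, where its smallest difference was -0.80. On the log2 scale the list averaged 7.45 ± 0.0758 in the stump at 5 h and 6.79 ± 0.0793 in the section (SD over arrays). The stump at 0 h stood higher than at 5 h, at 7.76 ± 0.35, and so did the uncut tip at 4 dpg, at 8.14 ± 0.159. These levels were not tested.

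Of 8 DNA replication genes, limma called 0 (3 had an unadjusted p under 0.05, all higher), and their median was 0.44. POLA3 of the DNA polymerase alpha complex came closest, at 592 ± 145 in the stump and 279 ± 15.6 in the section (SD, n = 4 and 3; difference 0.98, limma adjusted p = 0.0102). Among 12 histone genes 1 was higher and 1 lower (16.7% called, against 11.1% of all named genes). AT3G09480, an H2B gene, had 428.8, 430.6, 433.4 and 430.0 in the stump and 131.6, 152.3 and 146.2 in the section, whereas the linker histone gene AT2G30620 averaged 1145 ± 296 in the stump and 2714 ± 210 in the section.

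Probe sets without a single gene name held 26 of the 54 rises of 3 or more, so the genes below are ranked among named genes only. AT5G22580, which codes for a stress-responsive protein with an A/B barrel domain, had 9516.5, 9345.3, 8740.6 and 11235.8 in the stump, against 101.9, 45.4 and 48.2 in the section. Its difference of 6.69 (SE 0.35, adjusted p = 2.07e-15) was the largest among named genes. It averaged 103 ± 88 in the stump at 0 h, close to the section, 4328 ± 727 at 13 h and 2106 ± 821 at 22 h. AT4G38410, a dehydrin, a class of proteins made when cells lose water, had 1873.9, 1977.1, 2219.9 and 2482.1 in the stump and 24.6, 29.0 and 26.9 in the section (difference 5.20, SE 0.425, adjusted p = 2.89e-10).

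Defence proteins were mixed as a list, with a few members that differed widely between the stump and the section. Of 49 measured, 10 were called higher and 1 lower (22.4% called), with a median of 0.31. AT2G38870, a protease inhibitor of the PR-6 type, had 2533.6, 1241.3, 3003.7 and 3055.6 in the stump and 14.8, 12.6 and 45.6 in the section (difference 5.43, SE 0.457, adjusted p = 4.74e-10). At later times its means were 4542 ± 458 at 13 h and 6517 ± 2680 at 22 h. ATLP-1, a thaumatin-like protein, had a difference of 3.78, and the thaumatin-like genes AT2G28790 and AT1G73620 had 3.05 and 2.07. Of the chitinase family, whose enzymes cut fungal wall chitin, AT2G43620 had 3.66 and AT1G56680 had 2.88. AT2G43620 averaged 844 ± 229 in the stump and 37.9 ± 25.1 in the section. In the uncut tip at 4 dpg AT2G43620 averaged 43.9 ± 61.1 and AT2G38870 585 ± 401. Tip means were 900 ± 123 for ATLP-1, 4682 ± 1130 for AT2G28790, 2779 ± 641 for AT1G73620 and 597 ± 85.3 for AT1G56680. In the same order, stump means at 5 h were 1682 ± 424, 7060 ± 1540, 4975 ± 895 and 387 ± 53.9. At 0 h these 4 genes averaged 625 ± 618, 2978 ± 1570, 2472 ± 1470 and 138 ± 61.2. Their section means were 91.5 ± 24.7, 854 ± 357, 1170 ± 297 and 26.4 ± 15.7. AT2G43620 and AT2G38870 averaged 54.1 ± 77.7 and 139 ± 180 at 0 h. The stump at 5 h was not tested against the tip or the stump at 0 h.

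**Figure D2:**
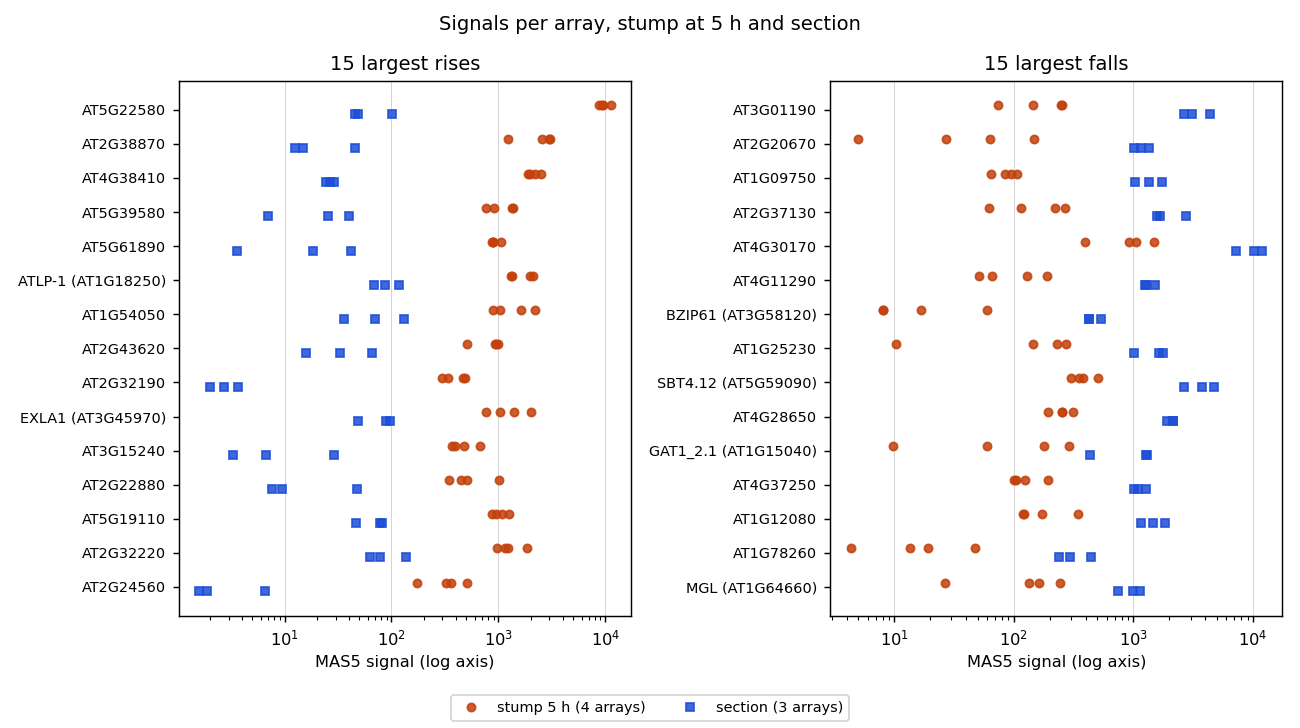
MAS5 signal of each array (log axis) for the 15 named genes that rose most and the 15 that fell most, with orange circles for the 4 stump arrays at 5 h and blue squares for the 3 section arrays. The groups do not overlap for any of these genes, which was a condition of choosing them, and for AT5G22580 the lowest stump array is at 8740.6 and the highest section array at 101.9.

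Regulators of wound, jasmonate and ethylene responses numbered 17 measured genes, of which 3 were called higher and 1 lower (23.5% called, median 0.12). AT5G61890 codes for a transcription factor of the ethylene response factor (ERF) family. Its signals were 1059.6, 885.3, 889.1 and 870.8 in the stump, against 18.6, 3.6 and 41.6 in the section (difference 4.23, SE 0.478, adjusted p = 1.67e-07). AT2G22880, a VQ motif protein of a family that partners WRKY transcription factors, had 343.5, 449.1, 512.8 and 1018.1 in the stump and 7.7, 9.5 and 48.1 in the section (difference 3.48). Its highest stump array was array 4, and its highest section array was array 3. STZ, a zinc finger repressor of stress responses, averaged 443 ± 19.5 in the stump and 64.8 ± 26 in the section (difference 2.33). AT2G28200, another zinc finger gene, fell by 1.31 on the log2 scale (adjusted p = 0.0163). That call was lost with the larger pseudocount (-0.58) and when stump array 1 or 2 or section array 2 or 3 was left out (adjusted p up to 0.072).

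Heat shock proteins and chaperones, which keep other proteins folded, had 10 of 19 measured genes called higher and 0 lower (52.6% called), and the list median was 1.19. With quantile normalization 7 were called and with median centring 5. The small heat shock protein gene AT1G54050 had 1029.4, 2216.0, 1611.3 and 891.0 in the stump and 35.9, 131.1 and 69.9 in the section (difference 3.73, adjusted p = 9.22e-07). Hsp70-2 had 737.0, 1131.5, 981.2 and 779.6 in the stump and 186.4, 26.7 and 83.7 in the section (difference 3.02). The small heat shock gene AT2G29500 had 2.66, the HSP70 exchange factor gene Fes1A 1.71 and the plastid chaperonin subunit gene Cpn60beta2 1.59. AT3G09440, an HSP70 gene, had 1.31 (adjusted p = 0.00836), and its call was lost with median centring and without section array 3 (adjusted p up to 0.0582). HSP70 genes are similar in sequence, and their probe sets may share transcripts. The list averaged 9.06 on the log2 scale in the stump at 5 h, 8.05 at 0 h and 7.72 in the section.

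Among dehydrin, LEA and cold genes 2 of 14 were called higher and 0 lower (14.3% called, against 11.1% of all named genes). LTI30, a cold-induced dehydrin, had 2908.2, 3401.7, 5174.7 and 7877.5 in the stump and 1123.7, 1262.9 and 1541.4 in the section (difference 1.76, adjusted p = 0.0229). Its call was lost with median centring and when stump array 3 or 4 or any 1 section array was left out (adjusted p up to 0.091). COR47, from the same class, had a difference of -1.42 (adjusted p = 0.129) and was not called.

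Among enzymes that conjugate and detoxify small molecules, 2 of 13 glutathione transferases were higher and 1 lower (23.1% called). GSTU25 had 3154.0, 6077.6, 4930.2 and 6388.7 in the stump and 605.4, 461.3 and 545.8 in the section (difference 3.14, adjusted p = 2.94e-07), and GSTU22 had 1.56, whereas GSTU27 fell by 1.69 on the log2 scale. UDP-glycosyltransferases, which attach sugars, had 4 higher and 4 lower of 51 (15.7% called), with UGT87A2 at 2.99 and UGT71C4 at -1.46. Of 23 cytochrome P450 genes 2 were called higher, CYP71B6 at 1.43 among them, and 0 lower (8.7% called, against 11.1% of all named genes).

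Class III peroxidases, secreted enzymes that produce or use peroxide in the wall, held both the fourth largest rise and the largest fall of the named genes. Of 55 measured, 3 were called higher and 10 lower (23.6% called, against 11.1% of all named genes, 6.38% higher and 4.75% lower). The median was 0.13, and 33 differences were positive. The lower calls numbered 12 with quantile normalization and with median centring, and 6 with the larger pseudocount. AT5G39580 (peroxidase PER62) had 759.3, 902.2, 1329.8 and 1363.0 in the stump and 7.0, 25.7 and 40.3 in the section (difference 4.32, adjusted p = 3.34e-08), and AT5G64120 had 2.53. AT3G01190 (PER27) had 145.1, 73.9, 246.6 and 252.2 in the stump, against 2670.8, 3115.9 and 4377.4 in the section (difference -4.09, SE 0.76, adjusted p = 0.000214). AT4G30170 (PER45) had 921.6, 392.9, 1057.0 and 1497.0 in the stump and 7152.1, 10160.7 and 11864.2 in the section (difference -3.40, adjusted p = 0.000585). AT2G37130 (PER21) had a difference of -3.44 and AT4G11290 (PER39) of -3.38.

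PER39 and PER45 were also low in the uncut tip. AT4G11290 averaged 109 ± 64.1 in the stump at 5 h, 150 ± 112 in the stump at 0 h, 13.4 ± 7.35 in the tip at 4 dpg and 1336 ± 145 in the section. AT4G30170 averaged 967 ± 455 in the stump at 5 h, 2329 ± 1930 in the stump at 0 h, 154 ± 92.4 in the tip and 9726 ± 2390 in the section.

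**Figure D3:**
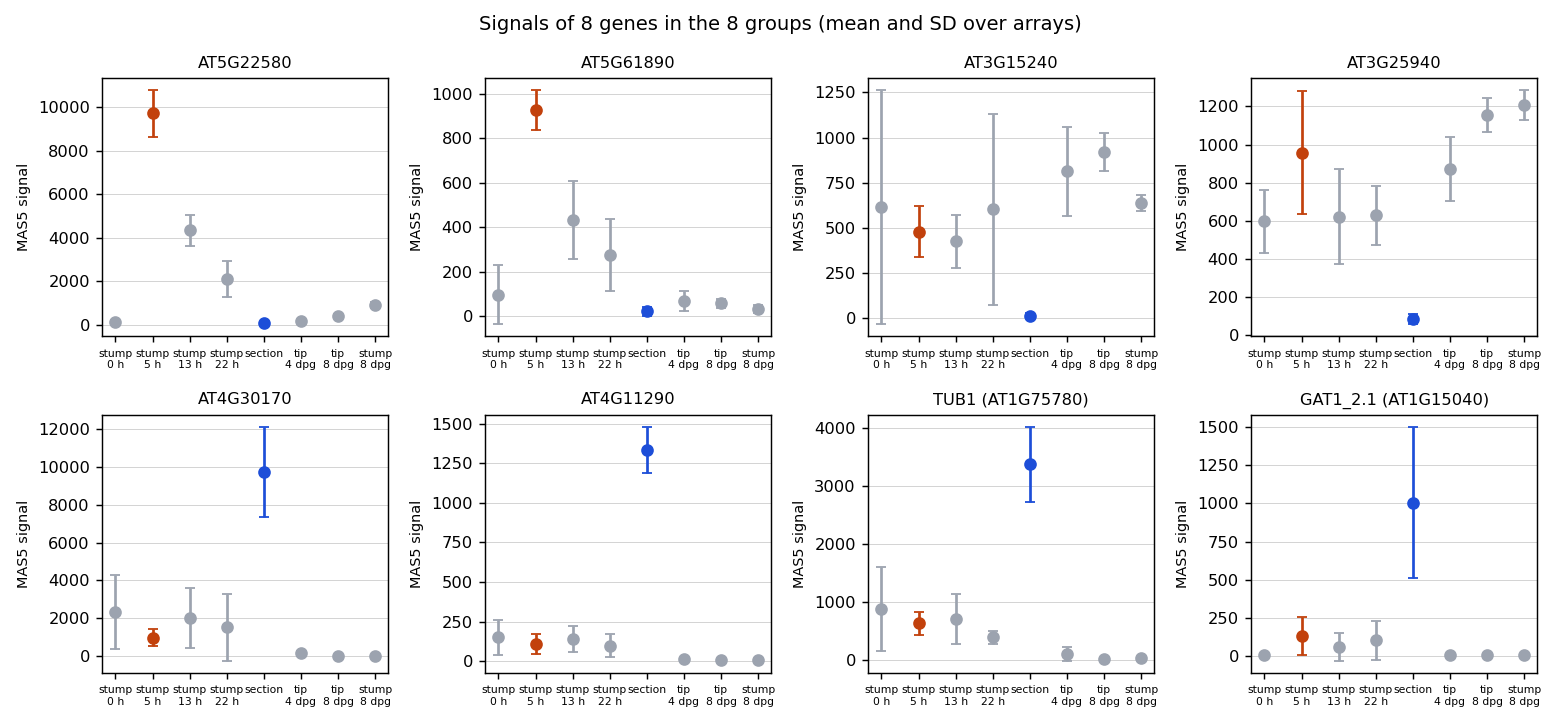
MAS5 signal of 8 genes in each of the 8 groups, as means over arrays with SDs over 3 to 5 arrays, with orange for the stump at 5 h and blue for the section. AT5G22580 is high in the stump at 5 h and near the section level at 0 h. AT5G61890 is high at 5 h and averages 96.1 ± 132 at 0 h (highest array 291.7), against 21.3 ± 19.1 in the section. AT3G15240 and AT3G25940 are high at both times and low in the section, and the 4 genes in the lower row are highest in the section.

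Other named genes among the largest rises fell into more than 1 pattern over the groups. EXLA1, an expansin-like protein of the wall, had 771.4, 1033.7, 1386.9 and 2010.3 in the stump and 48.2, 96.7 and 88.1 in the section (difference 3.55), and averaged 107 ± 88.1 at 0 h. AT2G32190 had 340.9, 295.0, 466.5 and 488.6 in the stump and 2.0, 3.7 and 2.7 in the section (difference 3.60), with 16.1 ± 12.4 at 0 h and 16.6 ± 21.7 at 13 h. AT3G15240 had 368.3, 675.3, 481.3 and 396.5 in the stump and 6.7, 28.8 and 3.3 in the section (difference 3.52), but 615 ± 648 at 0 h and 813 ± 248 in the tip at 4 dpg. A second probe set of AT3G15240 gave a difference of 0.90. AT5G19110, of the aspartyl protease family, had a difference of 3.43, and AT2G24560, a GDSL lipase, had 3.33.

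The largest falls outside the peroxidases included proteases, receptor kinases and metabolic enzymes. AT2G20670 had 26.9, 5.0, 63.0 and 148.1 in the stump and 1016.7, 1357.5 and 1156.6 in the section (difference -3.94, SE 0.601, adjusted p = 1.52e-05). AT1G09750, an aspartyl protease, had 94.2, 84.7, 106.8 and 64.1 in the stump and 1025.3, 1337.1 and 1725.4 in the section (difference -3.53). SBT4.12, a subtilisin-like protease, had 379.6, 299.5, 349.8 and 506.7 in the stump and 2658.4, 3766.9 and 4691.5 in the section (difference -3.15). It was the 1 call among 7 subtilases (14.3% called, against 11.1% of all named genes). The receptor kinase gene AT4G28650, a relative of the vascular regulator PXY, had 313.5, 251.5, 193.3 and 250.5 in the stump and 1901.1, 2131.6 and 2138.8 in the section (difference -2.89). AT4G37250, a leucine-rich repeat kinase, had -2.87.

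The transcription factor gene BZIP61 had 8.0, 59.7, 16.8 and 8.0 in the stump and 530.2, 421.3 and 425.8 in the section (difference -3.24). All stump signals lay under the median of all signals, 90.3, where small differences between arrays carry little weight. MGL, the methionine gamma-lyase that breaks down methionine, had a difference of -2.69. GAT1_2.1, a protein with a glutamine amidotransferase domain, had 59.6, 9.8, 286.5 and 178.3 in the stump and 433.9, 1284.4 and 1297.1 in the section (difference -2.88), while its other probe set gave -0.53. AT1G12080 had -2.86, and the RNA-binding protein gene AT1G78260 had -2.77.

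Wall-building genes shifted in parts. Tubulins form the microtubules that guide both the spindle and the laying down of cellulose. Of 7 tubulin genes measured, 4 were called lower and 0 higher (57.1% called, against 11.1% of all named genes), with a median of -1.55. TUB1 had 669.6, 365.4, 682.5 and 831.6 in the stump and 2743.9, 3339.3 and 4033.0 in the section (difference -2.38, SE 0.448, adjusted p = 0.000248). TUB5 had -2.23, TUB6 -1.85 and TUA6 -1.55. TUB9 had -0.56 (adjusted p = 0.0345), short of the size needed, and TUA1 had 0.44 (adjusted p = 0.59). Tubulin genes are similar in sequence, so their probe sets may share transcripts. TUB1 averaged 637 ± 196 in the stump at 5 h, 886 ± 725 at 0 h, 3372 ± 645 in the section and 105 ± 117 in the tip at 4 dpg.

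A list of 8 cellulose synthase-like genes (CSLA, CSLC and CSLD) and COB had 9 differences below 0, with a median of -0.65. Of these, 3 were called lower (33.3% called, against 11.1% of all named genes). COB, which orients cellulose deposition in elongating cells, had 835.4, 793.4, 642.8 and 680.9 in the stump and 1384.7, 2082.6 and 1915.1 in the section (difference -1.23, adjusted p = 0.000585). CSLA03, of the cellulose synthase-like family, had -2.12 (adjusted p = 0.00745), and its call was lost with a pseudocount of 1 and without section array 3 (adjusted p up to 0.0555). CSLC04, of the same family, had -1.02 (adjusted p = 0.0181) and lost its call under 8 alternatives (adjusted p up to 0.0855), among them leaving out stump array 2 or 4 or section array 1 or 3.

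Expansins, which loosen walls, had 4 of 19 called higher and 1 lower (26.3% called, against 11.1% of all named genes, median 0.12). Beside EXLA1, EXPA20 averaged 171 ± 25.9 in the stump and 10.3 ± 5.8 in the section, and EXPA4 had a difference of 2.09. EXLA2 had 1.75 (adjusted p = 0.0794 with a pseudocount of 1, where the call was lost). EXPB1 fell by 1.68 on the log2 scale. Of 10 xyloglucan endotransglucosylases, which cut and rejoin a wall polymer, 1 was higher and 3 lower. XTH21 had 30.3, 3.9, 4.7 and 72.4 in the stump and 160.5, 226.5 and 222.3 in the section (difference -2.11). XTH16 had -2.07, with an adjusted p of 0.0541 at a pseudocount of 1. XTH19 had -1.35 (adjusted p = 0.0328) and lost its call under 7 alternatives (adjusted p up to 0.139), including leaving out stump array 1 or 2 or any 1 section array. XTH20 had 1.63, lost with the larger pseudocount (0.83) and without section array 2 (adjusted p = 0.0913).

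Pectin enzymes, which trim another wall polymer, had 2 of 26 higher and 2 lower (15.4% called, against 11.1% of all named genes, median -0.24). The pectate lyase family split: AT3G53190 had 1769.2, 1216.1, 1220.4 and 1018.5 in the stump and 305.5, 256.7 and 194.6 in the section (difference 2.22, adjusted p = 2.48e-08), while AT3G07010 had -2.62 and AT5G48900 -1.84. The pectin methylesterase gene ATPMEPCRB had 1.47 (0.88 with the larger pseudocount, where its call was lost). Of 9 extensins, structural proteins of the wall, limma called 0, and 0 had an unadjusted p under 0.05.

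Among enzymes of the vacuole and of breakdown, acid phosphatases and invertases had 0 of 13 higher and 4 lower. This was 30.8% called, against 11.1% of all named genes, with a median of -0.21. AT1G62660, a vacuolar invertase that splits sucrose, had 2553.3, 1056.4, 1033.0 and 1176.2 in the stump and 6318.4, 6766.4 and 9037.7 in the section (difference -2.41, adjusted p = 0.000221). AT1G25230, a purple acid phosphatase, had -3.23, and the acid phosphatase gene AT5G44020 had -2.64. AT1G04040, another acid phosphatase gene, had 665.3, 687.4, 2007.1 and 3184.0 in the stump and 4607.4, 5963.6 and 7180.1 in the section (difference -2.12, adjusted p = 0.0168). Stump arrays 1 and 2 lay well below arrays 3 and 4. Its call was lost without stump array 1 or 2 or section array 2 or 3 (adjusted p up to 0.0822).

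Cysteine proteases had 0 of 20 higher, 3 lower and 17 not called (median -0.40). Of all named genes, 11.1% were called and 4.75% were called lower. AT3G19390, with a granulin domain, averaged 395 ± 154 in the stump and 2651 ± 1060 in the section. AT3G43960 had a difference of -2.30 and the cathepsin B-like gene AT1G02305 of -1.62. Serine carboxypeptidases had 2 of 29 higher and 3 lower (17.2% called). SCPL34 had -2.68, scpl46 -2.48 and scpl40 -1.97, whereas scpl48 had 2.02. Of 11 autophagy genes 1 was higher and 1 lower (18.2% called). ATG8G, for a protein of the autophagosome membrane, had 1.52 and ATG3, for the enzyme that attaches ATG8 to lipid, had -1.17. With the larger pseudocount both differences dropped under 1 in size (0.91 and -0.88).

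In the nitrate-peptide and SWEET families 3 of 28 were lower and 0 higher (10.7% called, against 11.1% of all named genes). AT3G21670, of the nitrate-peptide family, had 26.6, 18.2, 7.0 and 8.3 in the stump and 200.6, 121.4 and 174.7 in the section (difference -2.07). AT2G26690, of the same family, had -1.84 and the sugar transporter gene SWEET16 had -1.57. Nuclear photosynthesis genes had 2 of 12 lower and 0 higher (16.7% called, median -0.55), CHLM of chlorophyll synthesis at -1.42 and ATPC1 of the plastid ATP synthase at -1.28. Both were lost with the larger pseudocount (-0.88 and -0.80), and ATPC1 also without section array 2 (adjusted p = 0.0821). Of 69 plastid-encoded genes 1 was called higher and 1 lower (2.9% called), and the median was -0.02.

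Hormone genes were few on the named list. For auxin 2 of 16 were called higher and 0 lower (12.5% called, near the 11.1% of all named genes). GH3.3, an enzyme that conjugates auxin, had 136.0, 163.0, 266.7 and 277.6 in the stump and 2.5, 10.2 and 11.2 in the section (difference 2.56, adjusted p = 0.000419). IAA33, of the Aux/IAA repressor family, had 130.9, 119.6, 95.4 and 176.8 in the stump and 26.5, 4.1 and 2.3 in the section (difference 1.94, adjusted p = 4.78e-05), and 0.89 with the larger pseudocount, where its call was lost. Its means were 16.7 ± 11 at 0 h and 420 ± 214 at 13 h. Of 6 cytokinin genes limma called 0, and 0 had an unadjusted p under 0.05, with differences of -0.21 to 0.50.

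Few markers of root cell types carried a named probe set, so the labelled tissue was checked on 8 genes. Of the stem cell niche and ground tissue set 4 of 13 were named. BBM, a PLETHORA-class regulator of the meristem, had 182.0, 124.2, 166.3 and 118.2 in the stump and 5.8, 6.8 and 12.5 in the section (difference 2.14, adjusted p = 0.000195). It averaged 19.3 ± 8.6 at 0 h and 163 ± 117 in the tip at 4 dpg. JKD, a ground tissue regulator, had -1.11 (adjusted p = 0.12), AGL42, a quiescent centre marker, had 1.03 (adjusted p = 0.124), and the receptor kinase gene ACR4, listed as CR4, had 0.12 (adjusted p = 0.884).

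Root hair markers EXPA7 and EXPA18 had 27.7 ± 20.1 and 13.8 ± 5.07 in the stump, and 43.4 ± 31.2 and 30.3 ± 12.7 in the section, and neither was called (adjusted p = 0.843 and 0.735 by limma). Of the lateral root founder genes, LBD16 had 0.22 and LBD29 had 0.17 (adjusted p = 0.856 and 0.815). No marker of the root cap, endodermis barrier, xylem or phloem sets carried a name, and these cell types were not analysed here. The part that a different mix of cell types had in the differences above was not tested.

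**Figure D4:**
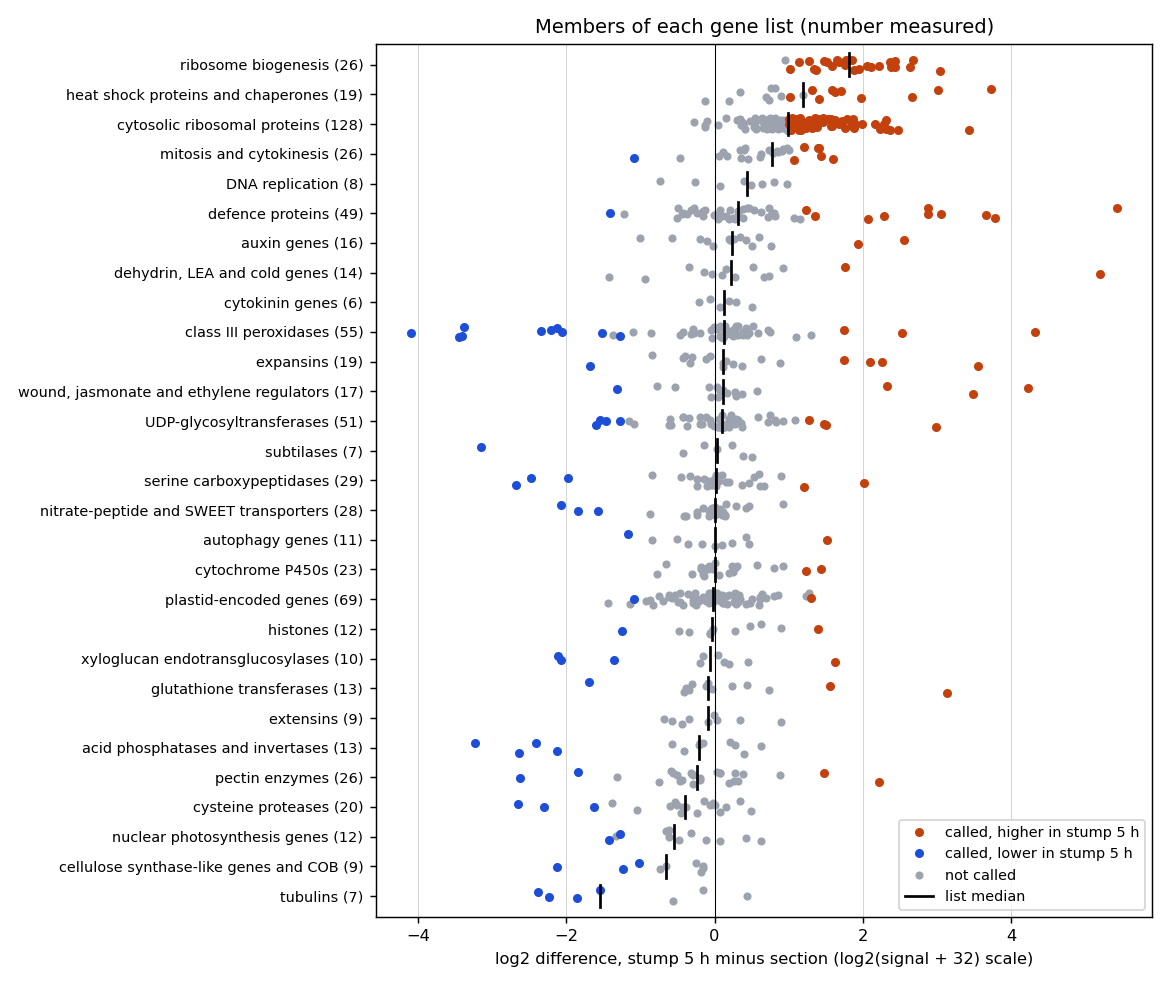
Log2 difference, stump at 5 h minus section, of every measured member of 29 gene lists, ordered by list median (black bar), with members called higher in orange, called lower in blue and not called in grey; the vertical scatter within a list carries no value. Ribosome biogenesis lies wholly above 0.9 with a median of 1.81, and tubulins have the lowest median, -1.55.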

How the data were processed

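Per the submitters' processing notes, the authors' deposited values are MAS5 signal on a linear scale (MAS5 version not stated). Trimmed means (2% off each end) ran between 246.5 and 248.6 over the 30 arrays, and no further scaling was applied. Values were taken as log2(signal + 32) and fitted with limma 3.58.1 in R 4.3.3 (lmFit, contrasts.fit, then eBayes using trend=TRUE), each of the 8 groups having its own coefficient, which left 22 residual degrees of freedom. Adjustment was by Benjamini-Hochberg over 22746 probe sets. A call needed an adjusted p under 0.05 and a log2 difference of at least 1 in size. The fit was also run on simulated data in which each probe set had the same spread in every group. The real groups differed in spread, so this run does not measure how reliable the calls are. Figures were drawn with matplotlib 3.10.9.

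Names came from a platform table: 13513 probe sets had 1 gene, 503 several, and 8730 are unlisted there. Of those with 1 gene, 13436 matched RefSeq (TAIR10.1, names only). The comparison, the members and the gene lists were chosen with earlier results of these data known. Lists came from symbols and synonyms and from gene IDs written by family once the names were known, in place of a planned search of gene descriptions, which were not used here. A gene with several probe sets is given by the brightest. The naming rule took the 15 largest rises and 15 largest falls among called genes with non-overlapping arrays whose higher group exceeded the median of all signals (90.3), up to 6 members per list with the smallest p, and every named cell type marker. It gave 196 genes, 118 with an adjusted p under 0.05, and 117 of the 196 were picked for the report with their values known.

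Other settings tried were pseudocounts of 1 and of 4 times 32 (the larger pseudocount), quantile normalization, centring on the array median, dropping the dimmest 40% of probe sets, trend=FALSE, only the 2 groups compared, no 0 h arrays, no arrays with a median signal above 120, array weights, a replicate block, and each of the 7 arrays left out in turn.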

Additional observations from a re-analysis of the deposited data

Results flagged for a closer look

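Among the 4 stump arrays at 5 h, 1 array stood apart from the other 3 for 9 of the 117 genes named, where chance flags about 1 gene in 20. No group of 3 was examined in this way, so the section arrays were not.

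Stump array 1 stood apart for 5 genes. It had 1059.6 for the ERF gene AT5G61890, against 870.8 to 889.1 in the other 3 stump arrays. For scpl48 it had 49.0 (others 204.1 to 236.4), for TUA1 12.2 (others 75.6 to 91.4) and for JKD 90.1 (others 10.6 to 18.6). For the invertase gene AT1G62660 it had 2553.3 (others 1033.0 to 1176.2).

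Stump array 2 stood apart for 3 genes, with 503.4 for the chitinase family gene AT2G43620 (others 933.1 to 990.3), 30.4 for the pectate lyase gene AT3G07010 (others 164.1 to 176.5) and 81.4 for the kinesin gene AT5G60930 (others 162.4 to 185.1). Stump array 4 had 4766.7 for the thaumatin-like gene AT2G28790, against 7615.8 to 8045.4 in the others. Leaving out any of these arrays ended no call of the called genes among these 9.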

How the results depend on the processing

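The count of called probe sets was 2317 to 3080 under the alternatives other than the larger pseudocount and the left-out arrays. The larger pseudocount, which shrinks dim probe sets, left 1481 calls, 818 higher and 663 lower. Leaving out 1 array at a time gave 1953 to 2719 calls, 1093 to 1480 higher and 860 to 1239 lower, and the fewest came without section replicate 3. With median centring 2737 probe sets were called, 1026 higher and 1711 lower, and 1025 of those higher were also called higher as deposited. Deviations from the group means of same-numbered arrays had correlations of 0.018, -0.003 and -0.012, so no pairing by number was visible. With so few arrays this cannot show whether same-numbered arrays shared a plate or day. A replicate block gave 2644 calls, 1426 higher, and ended the call of CSLC04. Of 106 called genes named in the report, 86 were called under all 18 alternatives, and 9 lost the call without 1 array. Differences changed sign for 3 uncalled markers: CR4 was -0.06 and LBD29 -0.01 with median centring, and LBD16 was -0.05 without stump replicate 2 (its range over the left-out arrays was -0.05 to 0.52). Signals have no counts or detection calls here, so no limit for absent transcripts can be given, and dim genes are the least certain.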

Other observations

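Several called genes with large differences lay outside the naming rule and were chosen after their values were seen. UPB1, a transcription factor that sets the balance of reactive oxygen between dividing and elongating root cells and represses peroxidase genes, had 51.2, 40.1, 140.7 and 286.8 in the stump at 5 h, against 706.3, 587.6 and 1124.7 in the section (difference -2.58, adjusted p = 0.000195 by limma). It averaged 96.2 in the tip at 4 dpg. FER, the receptor kinase FERONIA that senses the state of the wall, had 51.2, 88.3, 99.2 and 67.5 in the stump and 595.1, 512.5 and 573.6 in the section (difference -2.47, adjusted p = 1.26e-05). A second relative of PXY, the receptor kinase gene AT1G08590, had a difference of -2.27 (adjusted p = 0.00165), and the leucine-rich repeat kinase gene AT2G37050 had -2.66 (adjusted p = 0.000774). AT1G29980, of the DUF642 family of wall proteins, rose by 3.28 (2266.6, 1830.4, 2019.8 and 1373.9 in the stump, against 195.3, 140.0 and 152.7 in the section). Each of these 5 genes was called under all 18 alternatives (adjusted p up to 0.0188).

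Among called probe sets, 1203 carried no single gene name here, 601 higher and 602 lower. Their differences reached 6.71 and -4.99, so both the largest rise and the largest fall of the whole comparison lie among probe sets that are not named here.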
